A study of Danio rerio with 24 samples.

Results

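Complex I (NADH:ubiquinone oxidoreductase) was followed through the 46 zebrafish genes that encode its nuclear subunits and its assembly factors, out of 31953 genes in the count table. Members were taken by symbol in the authors' tables, as ndufa, ndufb, ndufc, ndufs and ndufv genes with a number, ndufab1 genes and ndufaf genes, upper or lower case. Genes whose names start with ndufa4 were left out. The rule uses symbols and no measured value, but the group of genes was picked with earlier results of these data known. It gave 38 subunit genes and 8 assembly factor genes, and no member symbol belonged to more than 1 gene ID. Of the 46, 45 had enough reads to be tested, and 1, ndufs8b, did not.

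Skeletal muscle of zebrafish (Danio rerio) aged 4 months was profiled by RNA sequencing in 3 groups. The first was wild-type fish that were not trained (untrained_WT). The second was wild-type fish that had been through chronic exercise training (trained_WT). The third was fish that were not trained and carried the transgene actc1b:PGC1alpha (untrained_TG). It overexpresses PGC1alpha, a transcriptional coactivator, and its label names actc1b, a muscle actin gene. Each group had 7 libraries. The labels do not say which species' PGC1alpha was used, how many transgenic lines there were, how long training lasted, or whether a library came from 1 fish or a pool. The p-values therefore measure the spread between these libraries. There was no trained transgenic group. Fewer muscle cells of one kind and less RNA per cell cannot be told apart in RNA of whole muscle.

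Complex I takes electrons from NADH, passes them along a chain of iron-sulphur clusters to ubiquinone, and pumps protons across the inner mitochondrial membrane. Its arm in the matrix is built from an N module, which binds NADH, and a Q module, which reduces ubiquinone. Its membrane arm is built from a proximal and a distal part. A conserved core, encoded partly in the nucleus and partly in mitochondrial DNA, carries out catalysis, and the supernumerary subunits around it serve stability and assembly. PGC1alpha is known in mammals as an activator of mitochondrial biogenesis, and endurance training is known there to raise the mitochondrial content of muscle. Roles of single proteins given here are those known from mammals.

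Depth was 42.8 to 79.2 M counts per library. All 24 fast fibre and all 14 slow fibre markers had reads in every group, which alone does not identify the tissue. Gene levels are given as CPM, the usual count relative to library size, with library sizes adjusted by the trimmed mean of M-values (TMM). Such levels depend on gene length, so they are compared between groups for the same gene and not between genes. A pair of libraries stood apart. In untrained_WT, replicates 3 and 7 had the highest germ-cell scores (an average over ddx4, dazl and piwil1 of log2 CPM), at 4.03 and 3.19, against -0.99 to 1.49 in the other libraries. On TMM-adjusted CPM the same replicates had the lowest level of the group in 44 of 45 tested members. The endogenous ppargc1a gene did not pass the test in untrained_TG (-0.74 ± 0.43 log2 units, adjusted p = 0.168), and this does not check the labels, since the transgene may not be counted under that gene.

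All 45 tested complex I genes were higher in untrained_TG than in untrained_WT. The fold ranged from 1.77 to 5.45 with a median of 2.84, which is a median of 1.51 log2 units against -0.13 over all genes tested. The largest adjusted p among the members was 0.0202 (edgeR quasi-likelihood F test, adjusted over 18947 genes). Over all genes tested, 18.3% were called higher in this comparison and 25.1% lower. In 43 of the 45 members the lowest untrained_TG library lay above the highest untrained_WT library, against 7.51% of all genes tested. The exceptions were ndufa12 and NDUFAF3. The size of the rise was alike in most members, with 39 of them between 1 and 2 log2 units, 3 below 1 and 3 above 2.

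**Figure D1:**
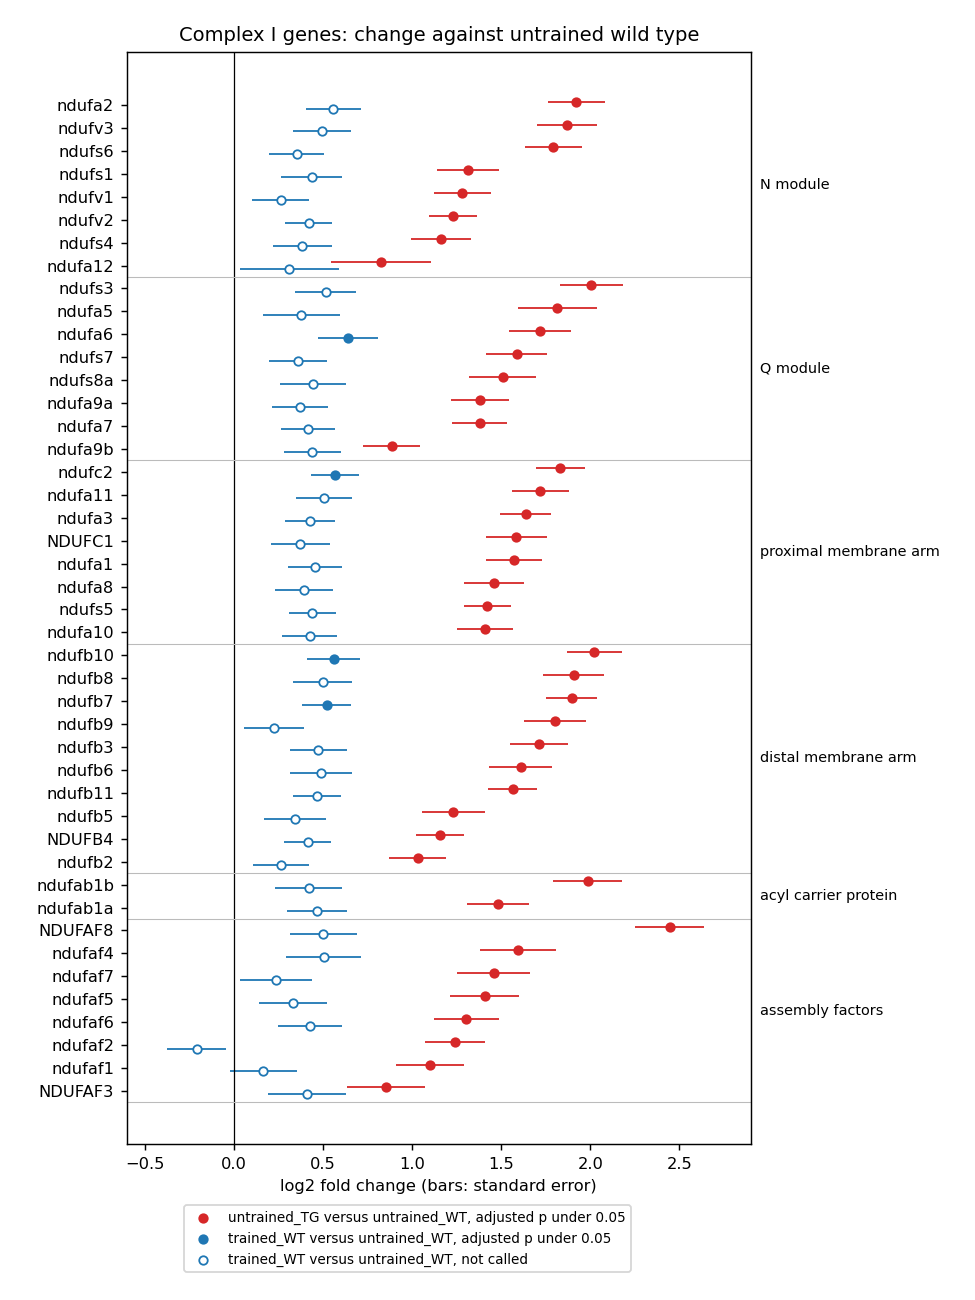
The plot of fold changes gives, for 44 of the 45 tested complex I genes grouped by role, the log2 fold change with its standard error against untrained_WT for untrained_TG (red) and trained_WT (blue), with filled points for an adjusted p under 0.05. All 44 red points are filled and lie between 0.83 and 2.44, and 4 of 44 blue points are filled.

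The nuclear core subunits of the N module hold the entry point for electrons. The ndufv1 protein binds NADH and the flavin that takes its electrons, and its gene measured 231 to 486 CPM in untrained_WT (median 346) and 670 to 1080 CPM in untrained_TG (median 827). The groups did not overlap, and the log2 fold change was 1.28 ± 0.16 (adjusted p = 1.1e-06). The ndufv2 gene, for an iron-sulphur subunit beside it, went from 156 to 262 CPM (median 242) in untrained_WT to 454 to 657 CPM (median 498) in untrained_TG, by 1.23 ± 0.13 log2 units (adjusted p = 1.71e-07). The ndufs1 gene, for the largest iron-sulphur subunit of the arm, had 295 to 622 CPM (median 571) in untrained_WT and 1020 to 1553 CPM (median 1135) in untrained_TG, a rise of 1.31 ± 0.17 (adjusted p = 2.31e-06). Every untrained_TG library thus lay above every untrained_WT library in these 3 genes.

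The supernumerary genes of the N module were less alike. The ndufa2 gene rose by 1.92 ± 0.16, ndufv3 by 1.87 ± 0.17 and ndufs6 by 1.79 ± 0.16 log2 units, while ndufs4 rose by 1.16 ± 0.17. The ndufa12 gene had the smallest change of all members. It was counted at 0.292 to 1 CPM in untrained_WT (median 0.701), 0.389 to 1.22 CPM in trained_WT (median 0.864) and 0.773 to 1.62 CPM in untrained_TG (median 1.22). The untrained_TG and untrained_WT libraries overlapped, and the change was 0.83 ± 0.28 log2 units (adjusted p = 0.0202). With as few as 24 counts in 1 library, ndufa12 rested on fewer reads than any other tested member, each of which had at least 306 counts in every library. Its call was lost without untrained_WT replicates 3 and 7 (0.63, edgeR adjusted p = 0.0634), with library totals as the only scaling (0.40, adjusted p = 0.292) and with the germ-cell score in the fit (0.67, adjusted p = 0.104). The median over the 8 N module genes was 1.3 log2 units.

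In the Q module, the ndufs7 protein lies next to the ubiquinone site. Its gene had 133 to 337 CPM (median 285) in untrained_WT and 640 to 933 CPM (median 787) in untrained_TG, a rise of 1.59 ± 0.17 (adjusted p = 1.15e-07). The ndufs8a gene, for a ferredoxin-like subunit, had 112 to 222 CPM (median 189) in untrained_WT and 326 to 752 CPM (median 444) in untrained_TG, a rise of 1.51 ± 0.19 (adjusted p = 1.05e-06). Neither gene overlapped between the groups.

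The highest rise among core subunits was that of ndufs3 (ENSDARG00000015385), which encodes a structural subunit of the Q module. Its libraries had 103 to 229 CPM (median 198) in untrained_WT, 192 to 286 CPM (median 274) in trained_WT and 607 to 989 CPM (median 683) in untrained_TG. The untrained_TG libraries stood clear of both wild-type groups, and the log2 fold change against untrained_WT was 2.01 ± 0.18 (adjusted p = 9.29e-09).

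The second ferredoxin-like gene, ndufs8b, was close to undetected. It had 32 reads in untrained_WT, 22 and 10 of them in replicates 7 and 3, and none in the 7 trained_WT or the 7 untrained_TG libraries. A count of 0 allows up to 3 counts per group, or 0.00569 CPM in trained_WT and 0.00632 CPM in untrained_TG, for counting error only. The libraries with reads were those with the high germ-cell scores. The part of germ cells in these reads was not tested.

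The proximal part of the membrane arm had the narrowest range of fold changes among the roles with several members. All 8 of its genes were higher in untrained_TG, between 1.41 (ndufa10) and 1.83 (ndufc2) log2 units with a median of 1.58, and none overlapped with untrained_WT. The SD over these 8 fold changes was 0.15, against 0.35 over all 45 members. In the distal part all 10 genes were higher, with a median of 1.66, and again none overlapped. Its extremes were ndufb2 and ndufb10. The ndufb2 gene had 156 to 368 CPM (median 292) in untrained_WT and 507 to 691 CPM (median 515) in untrained_TG, a rise of 1.03 ± 0.16 (adjusted p = 1.86e-05). The ndufb10 gene had 95.6 to 175 CPM (median 167) and 512 to 760 CPM (median 577), a rise of 2.02 ± 0.15 (adjusted p = 1.07e-09). Other large changes in the distal part were those of ndufb8 (1.91 ± 0.17) and ndufb7 (1.90 ± 0.14).

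**Figure D2:**
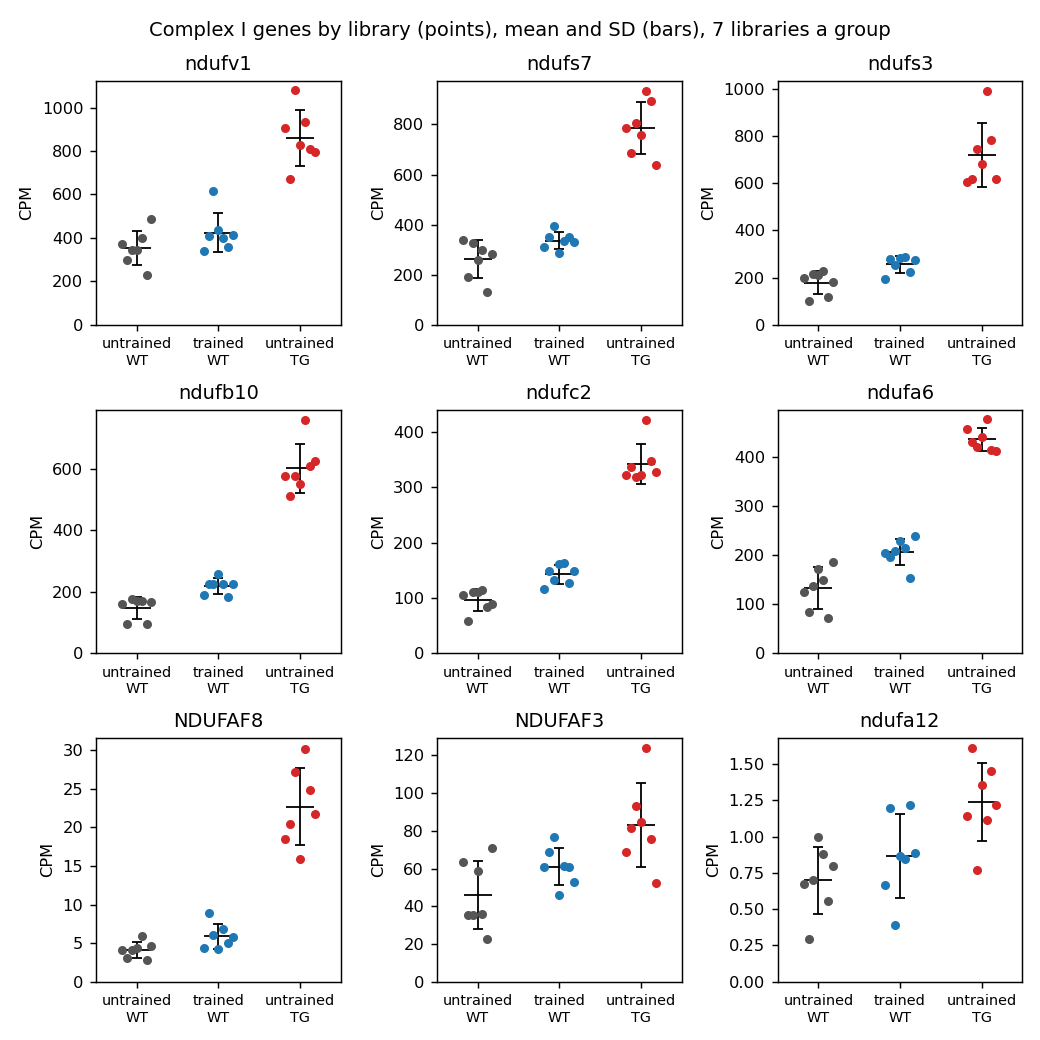
The plot of CPM by library shows 9 complex I genes, with 1 point for each of 7 libraries in each of the 3 groups and bars for the mean and SD. The untrained_TG points clear the untrained_WT points for ndufv1, ndufs7, ndufs3, ndufb10, ndufc2, ndufa6 and NDUFAF8, and overlap with them for NDUFAF3 and ndufa12.

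Core and supernumerary genes had overlapping ranges. The 7 tested core genes had a median of 1.31 log2 units and reached 2.01, and the 30 supernumerary genes had a median of 1.60, from 0.83 to 2.02. The difference between these medians was not tested.

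Zebrafish carry a pair of genes for some subunits, and in untrained_TG the members of a pair did not rise by the same factor. The ndufab1 genes encode the mitochondrial acyl carrier protein, which is a subunit of complex I and also serves mitochondrial fatty acid synthesis. For ndufab1a the libraries had 63.3 to 132 CPM (median 119) in untrained_WT and 237 to 385 CPM (median 281) in untrained_TG, a rise of 1.48 ± 0.17 (adjusted p = 4.15e-07). For ndufab1b they had 55.5 to 146 CPM (median 118) and 334 to 629 CPM (median 418), a rise of 1.98 ± 0.20 (adjusted p = 4.02e-08). Neither gene overlapped between the groups.

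The count ratio of ndufab1b to ndufab1a measures the difference in rise within each library. It was -0.27 to 0.24 log2 units in untrained_WT (median 0.14), -0.08 to 0.16 in trained_WT (median 0.07) and 0.48 to 0.71 in untrained_TG (median 0.58). The difference between the means of untrained_TG and untrained_WT was 0.51 (exact two-sided permutation test over 3432 splits, p = 0.000583, the smallest p that 7 against 7 libraries can give, and 0.000874 adjusted over 6 tests). Trained and untrained wild type differed by -0.01 (exact permutation p = 0.855, and 0.855 adjusted). The pair was picked after its values had been seen, and the adjustment does not cover that choice.

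A second pair, ndufa9a and ndufa9b, also differed in its rise. Their protein sits where the Q module meets the membrane arm. The ndufa9a gene rose by 1.38 ± 0.16 log2 units (165 to 342 CPM in untrained_WT, median 298, and 589 to 881 CPM in untrained_TG, median 687). The ndufa9b gene, from 3.77 to 8.57 CPM (median 7.0), reached 10.3 to 15.5 CPM (median 12.4), a rise of 0.89 ± 0.16 (adjusted p = 0.000115). The log2 count ratio of ndufa9a to ndufa9b was 5.01 to 5.45 in untrained_WT, 5.13 to 5.44 in trained_WT and 5.47 to 6.15 in untrained_TG. Its mean was higher by 0.50 in untrained_TG than in untrained_WT (exact permutation p = 0.000583, and 0.000874 adjusted over the same 6 tests), and in trained_WT it differed from untrained_WT by -0.05 (p = 0.449 and 0.539 adjusted, by the same exact test). Both pairs were picked after their values had been seen, and the adjustment over 6 tests does not cover that choice. Reads that match both genes of a pair may have been set aside or split in the authors' counting, so the ratios hold for the counted reads.

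**Figure D3:**
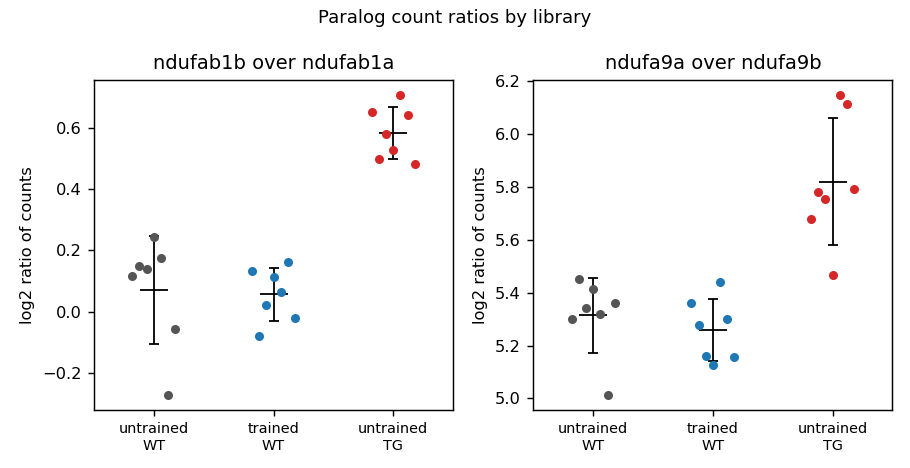
The plot of paralog count ratios shows the log2 ratio of ndufab1b to ndufab1a and of ndufa9a to ndufa9b in each of 7 libraries per group, with bars for the mean and SD. The untrained_TG points lie above all wild-type points in both panels, from 0.48 for the first ratio and from 5.47 for the second.

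Assembly factors, which build the complex and leave it, also rose as a whole, with all 8 called higher in untrained_TG and a median of 1.36 log2 units. They had the widest range of any role, from 0.85 to 2.44. At the top was NDUFAF8 (ENSDARG00000096749), known to work with NDUFAF5, the enzyme that hydroxylates an arginine of the ndufs7 protein. NDUFAF8 was counted at 2.85 to 5.96 CPM in untrained_WT (median 4.16), 4.26 to 8.88 CPM in trained_WT (median 5.85) and 15.9 to 30.2 CPM in untrained_TG (median 21.8). Every untrained_TG library lay above every wild-type library, and the rise was 2.44 ± 0.20 (adjusted p = 2.26e-09), the highest among members, while ndufaf5 itself rose by 1.41 ± 0.19.

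At the other end, NDUFAF3, which acts with NDUFAF4 in building the Q module, had 22.6 to 70.6 CPM in untrained_WT (median 35.7), 46 to 76.6 CPM in trained_WT (median 60.8) and 52.6 to 124 CPM in untrained_TG (median 81.5). The 3 groups overlapped. The change against untrained_WT was 0.85 ± 0.22 (adjusted p = 0.00326), and the call was lost with the germ-cell score in the fit (0.55, edgeR adjusted p = 0.0537). Its partner gene ndufaf4 rose by 1.59 ± 0.21. The remaining factors were ndufaf1 (1.1 ± 0.19), which acts on the membrane arm, ndufaf2 (1.24 ± 0.17), a paralogue of the ndufa12 subunit, ndufaf6 (1.3 ± 0.18), and ndufaf7 (1.46 ± 0.21), a methyltransferase.

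Assembly factors with other names had a lower median, and not all were called. Of 10 such genes on a list, 6 were called higher by edgeR in untrained_TG and 4 were not called, with a median of 0.87 log2 units. Over all genes tested, edgeR called 18.3% higher. DESeq2 called 7 of the 10 and limma-voom 6. The highest were tmem186 (1.41 ± 0.30, adjusted p = 0.000655) and foxred1 (1.39 ± 0.23, adjusted p = 3.63e-05). The lowest were lyrm2 (0.28 ± 0.15, adjusted p = 0.134) and ecsit (0.34 ± 0.24, adjusted p = 0.271), neither of which passed the test. In mammals the products of tmem186, ecsit and acad9 act with NDUFAF1 in one assembly complex, and acad9 did not pass the test either (0.51 ± 0.22, adjusted p = 0.0631).

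The core subunits encoded in mitochondrial DNA had larger fold changes than the nuclear members in untrained_TG. All 7 mt-nd genes were called higher, from 2.80 ± 0.21 (mt-nd4l) to 4.88 ± 0.27 (mt-nd6), with a median of 3.13 log2 units. The strand setting of the counting is not known and mt-nd6 lies on the other strand from its neighbours, so its value may hold reads of those. Reads of mt-nd genes per read of the nuclear members were 1.81 to 3.37 in untrained_WT (median 2.14), 1.77 to 2.68 in trained_WT (median 2.00) and 6.13 to 7.99 in untrained_TG (median 7.0). The lowest untrained_TG library was above the highest wild-type library in this ratio.

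The other respiratory complexes were higher in the transgenic fish as well. By edgeR all listed nuclear genes were called higher there (limma-voom called 16 of the 17 complex IV genes). The median was 1.24 log2 units over 5 genes of complex II and 1.61 over 9 of complex III. It was 1.91 over 17 of complex IV and 1.75 over 16 of ATP synthase. Beside these, the median was 1.51 over the 45 complex I genes and 1.57 over the 37 of them that encode subunits. No test of a difference between the complexes was made.

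Fibre-type markers moved in the same comparison. The summed level of 24 fast fibre markers was 92470 to 356000 CPM in untrained_WT (median 272100) and 29860 to 41060 CPM in untrained_TG (median 33570), with 21 genes called lower and 1 higher. The 14 slow fibre markers summed to 2710 to 6503 CPM (median 4654) and 21430 to 38300 CPM (median 30370), with 11 called higher and none lower. Their part in the rise of complex I genes was not tested. The germ line list of 14 genes summed to 4.45 to 105 CPM in untrained_WT and 1.98 to 7.73 CPM in untrained_TG, with 6 of 8 tested genes called lower and 1 of the 14 at 0 in every untrained_WT library. The other 2 tested genes were not called and lay above 0, up to 0.84 log2 units for bmp15. Of these, 1 had an unadjusted edgeR p under 0.05. The germ-cell score covers ddx4, dazl and piwil1 only. Without untrained_WT replicates 3 and 7, 44 of 45 complex I genes were still called higher in untrained_TG, and 43 were when the germ-cell score was added to the fit. Over all genes, calls in either direction were 7538 of 19211 and 6899 of 18947 in these edgeR fits.

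The share of all counts that went to the 46 complex I genes was highest in the transgenic fish. It was 0.745% ± 0.0999 (SD, n = 7) in untrained_WT, 0.852% ± 0.112 in trained_WT and 1.59% ± 0.0721 in untrained_TG. The lowest untrained_TG library, at 1.49%, was above the highest wild-type library, a trained_WT one at 1.06%. Genes encoded in mitochondrial DNA took 10.5% ± 2.38 of counts in untrained_WT, 11.2% ± 1.45 in trained_WT and 46.8% ± 2.45 in untrained_TG, which leaves less of the total for all nuclear genes. With those genes left out of the total, the complex I share was 0.835% ± 0.129 in untrained_WT, 0.960% ± 0.128 in trained_WT and 2.99% ± 0.200 in untrained_TG.

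**Figure D4:**
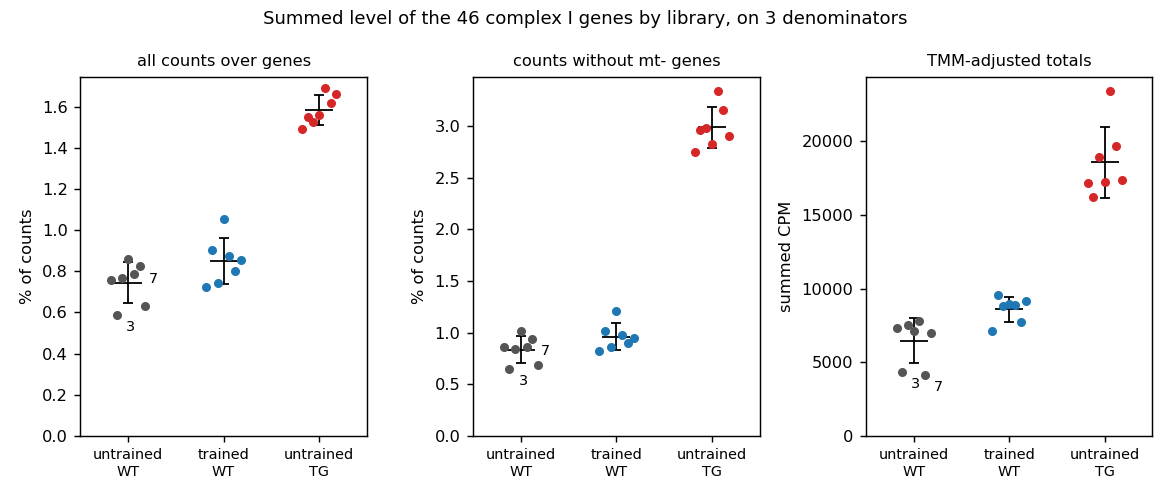
The plot of the summed level shows the 46 complex I genes together in each library, as a percent of all counts, as a percent of counts without mitochondrially encoded genes, and as CPM on TMM-adjusted totals, with bars for the mean and SD over 7 libraries and with untrained_WT replicates 3 and 7 marked. The untrained_TG libraries are highest on all 3 scales, and replicate 7 is the lowest untrained_WT library at 4112 CPM on the third scale but has 0.825% on the first.

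Differences after training were smaller, and few passed the test. In trained_WT against untrained_WT, 44 of 45 members had a log2 fold change above 0 (43.4% of all genes tested did), with a median of 0.43 against -0.07 over all genes. Only ndufaf2 was below 0, at -0.21 ± 0.17 (adjusted p = 0.524). After adjustment over all genes, 4 of 45 were called higher and none lower, while 2.25% of all genes tested were called higher and 0.702% lower. At an unadjusted p under 0.05, 34 of 45 were higher, against 9.34% of all genes tested. With limma-voom 19 were, against 10.5%. With library totals as scaling 8 were higher, against 3.3%, 41 members were above 0 and their median was 0.20, beside -0.36 over all genes. The members share libraries and scaling, so these counts are not 45 separate observations.

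The genes called after training were ndufa6 (ENSDARG00000038028), ndufc2 (ENSDARG00000102115), ndufb10 (ENSDARG00000028889) and ndufb7 (ENSDARG00000033789). The ndufa6 protein is the subunit of the Q module to which an acyl carrier protein attaches. Its gene had 71.7 to 187 CPM in untrained_WT (median 138) and 155 to 239 CPM in trained_WT (median 208), which overlapped, with a change of 0.64 ± 0.17 log2 units (adjusted p = 0.0412). The ndufc2 gene, of the proximal membrane arm, had 59.0 to 115 CPM (median 105) and 117 to 163 CPM (median 148), a change of 0.57 ± 0.13 (adjusted p = 0.0221). In ndufc2 every trained library exceeded every untrained one.

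The other 2 genes belong to the distal membrane arm. The ndufb10 gene had 95.6 to 175 CPM in untrained_WT (median 167) and 184 to 258 CPM in trained_WT (median 224), a change of 0.56 ± 0.15 (adjusted p = 0.0408). The ndufb7 gene had 130 to 211 CPM (median 198) and 212 to 305 CPM (median 264), a change of 0.52 ± 0.14 (adjusted p = 0.0429). Neither overlapped between the groups. With ndufc2 they made up the 3 of 45 members that were higher in trained_WT without overlap, against 0.992% of all genes tested. The closest gene that was not called was ndufa2 (0.56 ± 0.16, adjusted p = 0.0526). Of 27 alternative fits, the call was lost in 6 for ndufc2, 14 for ndufa6, 16 for ndufb10 and 18 for ndufb7.

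By role, the medians after training were near each other. They were 0.40 for the N module, 0.42 for the Q module, 0.43 for the proximal and 0.47 for the distal membrane arm, 0.44 for the acyl carrier proteins and 0.37 for assembly factors. The count higher at an unadjusted p under 0.05 was 8 of 8 in the proximal arm, 8 of 9 in the Q module, 7 of 10 in the distal arm, 6 of 8 in the N module, 2 of 2 acyl carrier protein genes and 3 of 8 assembly factors. Of all genes tested, 9.34% were higher at that threshold. Among core subunits ndufs3 had the largest change (0.52 ± 0.17, adjusted p = 0.103) and ndufv1 the smallest (0.26 ± 0.16, adjusted p = 0.373). None of the 10 other assembly factors and none of the 7 mt-nd genes was called by edgeR after training (2 of each at an unadjusted p under 0.05). DESeq2 called 1 gene of each list, and limma-voom called 0 of the assembly factors and 1 of the mt-nd genes. Of all genes tested, 3.9% were called higher by DESeq2 and 3.33% by limma-voom.

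The tools differed on how many genes passed. For trained_WT against untrained_WT, edgeR called 4 members higher. DESeq2 called 12 higher (as were 3.9% of all genes tested) and limma-voom with sample quality weights called 4 higher (3.33%). In the authors' deposited table the adjusted p of 9 members was under 0.05, against 3.6% of the genes that have one there. The genes ndufa6, ndufb10 and ndufc2 were called by all 4 sources. All 4 genes called by edgeR were also among those called by DESeq2 and among those of the authors' deposited table. For untrained_TG against untrained_WT the authors' deposited table gave 45 members as higher.

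**Figure D5:**
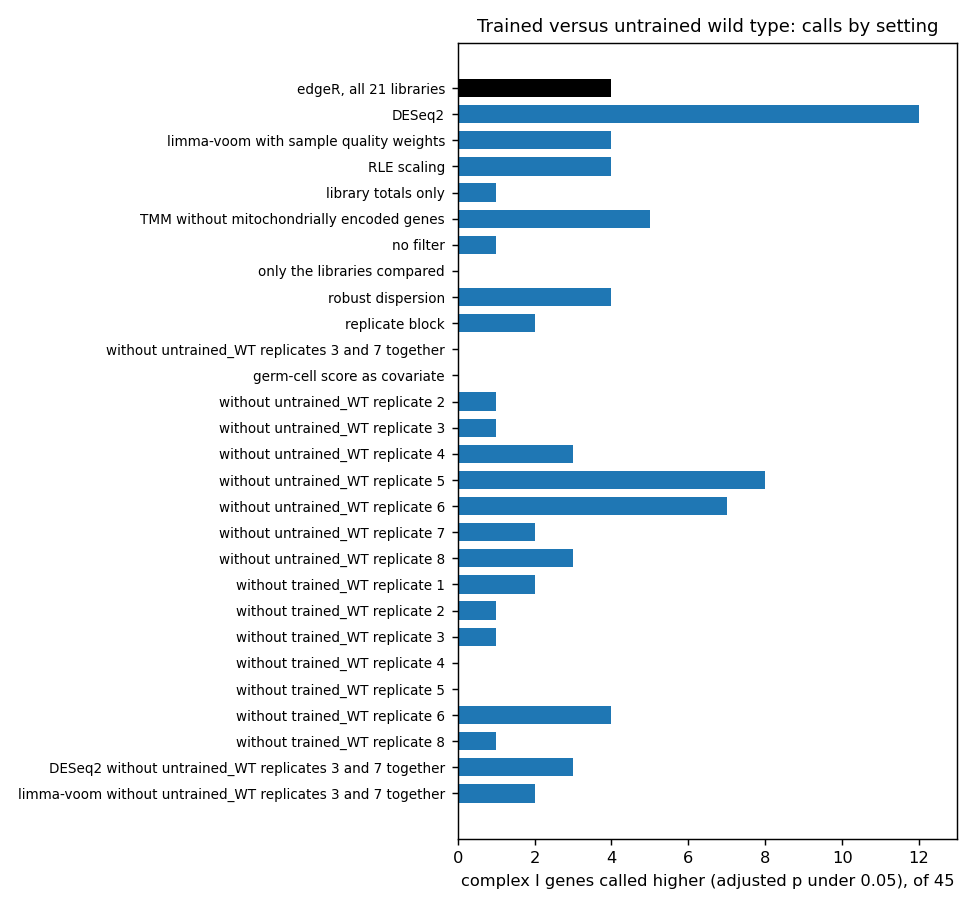
The plot of calls by setting gives, for trained_WT against untrained_WT, the number of the 45 tested complex I genes called higher (adjusted p under 0.05) under each tool, scaling, filter and set of libraries, with the edgeR result on all 21 libraries in black. The bars run from 0 to 12 genes, and the black one stands at 4.

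The number of training calls fell when 2 untrained libraries were left out. On TMM-adjusted totals, untrained_WT replicates 3 and 7 had summed complex I levels of 4356 and 4112 CPM, and the other untrained_WT libraries had 6959 to 7768 CPM. Without both, 0 of 45 members were called by edgeR and 17 had an unadjusted p under 0.05. Over all genes, edgeR calls in either direction fell from 559 of 18947 to 262 of 19211, and the 2 fits differ in the number of libraries. Of all genes tested, 6.9% had an unadjusted p under 0.05 and were higher in that edgeR fit. In the same fit 43 of 45 members stayed above 0, against 46.6% of all genes tested. DESeq2 called 3 of 45 members there (2.31% of all genes tested were called higher) and limma-voom 2 of 45 (2.88%). Whether these few calls exceed the shares over all genes was not tested. The edgeR median was 0.25 log2 units. Adding the germ-cell score to the edgeR fit also left 0 calls (16 had an unadjusted p under 0.05, against 6.42% of all genes tested), with the same median of 0.25. With that score in the fit, 248 of 18947 genes were called in either direction. The TMM factors of untrained_WT replicates 3 and 7, 1.35 and 2.01, were the highest of the group. As a percent of all counts replicate 7 had 0.825%, below only replicate 5 (0.861%) in its group, while replicate 3 stayed the lowest at 0.588%. The part of germ-cell content or of scaling in the training difference was not tested beyond these fits.

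Single libraries also set the count. Leaving out trained_WT replicate 4 or 5 left 0 calls by edgeR, and leaving out trained_WT replicate 2, 3 or 8 or untrained_WT replicate 2 or 3 left 1. Leaving out trained_WT replicate 1 or untrained_WT replicate 7 left 2, and leaving out untrained_WT replicate 5 or 6 gave 8 and 7. Over all genes, calls in either direction were 559 of 18947 with all libraries and 287 to 623 without 1 library. They were 376 and 287 without trained_WT replicate 4 or 5, and 623 and 520 without untrained_WT replicate 5 or 6. The sign of the median held in each of these fits, with values from 0.36 to 0.48 log2 units.

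Set directly against trained fish, untrained_TG was higher in 43 of 45 members (19.2% of all genes tested were called higher), with a median of 1.09 log2 units against -0.05 over all genes and folds from 1.36 to 3.84. In 40 of 45 members the lowest untrained_TG library lay above the highest trained_WT library, against 8.22% of all genes tested. The genes that were not called were NDUFAF3 (0.44 ± 0.22, adjusted p = 0.112) and ndufa12 (0.51 ± 0.28, adjusted p = 0.147), and ndufa9b was called at 0.45 ± 0.16 (adjusted p = 0.0281). The call of ndufa9b was lost without trained_WT replicate 1 or 6 or untrained_TG replicate 4 (edgeR adjusted p = 0.0691, 0.0572 and 0.0559) and with library totals (0.24, adjusted p = 0.27). The highest differences were those of NDUFAF8 (1.94 ± 0.19, adjusted p = 4.85e-08), ndufb9 (1.57 ± 0.17, adjusted p = 1.81e-07) and ndufab1b (1.56 ± 0.19, adjusted p = 1.02e-06).

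In ndufb9 and ndufaf2 the wild-type groups lay close together and the transgenic group stood apart. The ndufb9 gene had 91.7 to 205 CPM in untrained_WT (median 154), 128 to 220 CPM in trained_WT (median 180) and 447 to 718 CPM in untrained_TG (median 507). The wild-type groups overlapped, with a change of 0.23 ± 0.17 (adjusted p = 0.483), while untrained_TG was apart by 1.80 ± 0.17 from untrained_WT (adjusted p = 2.66e-08). The ndufaf2 gene had 10.3 to 23.0 CPM (median 12.8), 9.14 to 14.9 CPM (median 12.8) and 26.7 to 42.7 CPM (median 33.4) in the same order, with the transgenic libraries again above all others. These 2 genes were singled out after their values were seen.

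The spread between libraries differed by group. The median SD of log2 CPM over members was 0.21 in trained_WT and 0.22 in untrained_TG, against 0.29 and 0.32 over all genes tested. In untrained_WT it was 0.41, against 0.37. In trained_WT, replicate 1 was the lowest library in 30 of 45 members and replicate 2 the highest in 22. In untrained_TG, replicate 5 was the highest in 38 of 45, and replicate 2 the lowest in 19. Without untrained_TG replicates 5 and 7, the latter being the library with the fewest counts, all 45 members were still called higher than in untrained_WT. In that edgeR fit 7121 of 19601 genes were called in either direction.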

How the data were processed

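The authors deposited raw read counts per gene from muscle of 24 labelled samples, and 21 of them, 7 per group, have a column in the count table used here. Untrained_WT replicate 1, trained_WT replicate 7 and untrained_TG replicate 8 were not analysed here, and the tests planned for 8 libraries a group ran on 7. Libraries were made with a stranded mRNA kit, per the labels' protocols. Tools named in the submitters' processing notes are STAR 2.4.0i, HTSeq 0.9.1 and DESeq2, with the build GRCz10. Neither the annotation release nor the counting's strand setting is given in the sources, so overlapping genes may share reads. Close paralogues may share reads as well. The authors' deposited tables also hold log2 fold changes and p-values for both comparisons with untrained_WT. They supplied gene symbols (31312 of 31953 IDs) and a count of calls, and their 42 columns of values per library were not used. Entries that name no gene stayed out of library sizes. Of all reads in the table, those without a feature were 6.19% ± 1.01 (SD, n = 7) in untrained_WT, 5.79% ± 0.258 in trained_WT and 9.18% ± 0.579 in untrained_TG, and reads with several alignments to 9.07% ± 1.05, 9.06% ± 0.859 and 6.65% ± 0.908.

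The main test was the quasi-likelihood F test of edgeR 4.0.16 (R 4.3.3), with TMM scaling and filterByExpr, in a single model of group over all 21 libraries. P-values were adjusted by Benjamini-Hochberg over the 18947 genes left, separately for each comparison, and an adjusted p under 0.05 was a call. The value after ± is the standard error for a log2 fold change and the SD for a level or share. The common biological coefficient of variation was 49.5%. The script was tested on simulated data. Paralogue count ratios used an exact two-sided permutation test over libraries. No pair of libraries in a group agreed within sampling noise.

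Complex I members, roles and the other lists were chosen with earlier results of these data known, so no list was tested as a set. The genes given with values by group were the nuclear core subunits, the 4 highest and 4 lowest fold changes in untrained_TG, the members called after training and the assembly factors at either end. 1 member enters the counts and medians but is not reported singly here. Genes named beyond this rule are marked as chosen after their values were seen or are given by fold change alone. Alternatives changed the tool (DESeq2, limma-voom), scaling, filter, libraries, dispersion, a replicate block and a germ-cell covariate. No reference genome or sequence was used here, so no coordinates are given.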

Additional observations from a re-analysis of the deposited data

Results flagged for a closer look

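In 141 groups of 7 values (the CPM of a member, or a summed level, within a group), 5 had 1 library far from the nearest of the others, by Dixon's criterion with a critical value of 0.568. Chance gives about 1 in 20 such groups.

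Untrained_TG replicate 5 made up 2 of the 5. It had 755.2 CPM of ndufa8 (the next library had 594.2) and 422.6 CPM of ndufc2 (next 346.8). This library was the highest of its group in 38 of 45 members, and its TMM factor, 0.722, was the lowest of all libraries. In untrained_WT, replicate 5 had 196.9 CPM of ndufa5, a Q module subunit, against 101.1 in the next library, and replicate 7 had 70.48 CPM of ndufs6, a zinc-binding subunit of the N module, against 125.9 in the next lowest. In trained_WT, replicate 3 had 615.5 CPM of ndufv1 against 437.4 in the next.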

How the results depend on the processing

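For untrained_TG against untrained_WT, 43 to 45 members were called in every fit run, and 45 in each fit without 1 library. Calls over all genes in either direction were 8232 of 18947 in the main fit, 6899 with the germ-cell covariate and 9677 with library totals. For untrained_TG against trained_WT, 42 to 45 members were called, and 42 to 43 in fits without 1 library. Calls over all genes there were 7887 of 18947 in the main fit and 8699 with limma-voom. They were 7017 of 19601 without untrained_TG replicates 5 and 7. No median changed sign, and no member did in the comparisons with untrained_TG. For training, ndufb9 (-0.01 to 0.31), ndufaf1 (-0.11 to 0.25) and ndufaf7 (-0.01 to 0.33), none of them called in any fit, changed sign between fits. For trained_WT against untrained_WT, the 4 calls became 12 with DESeq2, 1 with library totals, 1 with no filter, 0 with only the libraries compared, 0 without untrained_WT replicates 3 and 7, 0 with the germ-cell covariate, and 2 with limma-voom without those replicates. Fits without 1 library gave 0 to 8. Over all genes, calls in either direction were 559 of 18947 in the main fit, 1303 with DESeq2 and 1128 with library totals. They were 427 of 27273 with no filter and 375 of 18115 with only the libraries compared. Without untrained_WT replicates 3 and 7 they were 262 by edgeR and 953 by limma-voom, and 248 with the germ-cell covariate. The limma-voom and DESeq2 fits without untrained_WT replicates 3 and 7 were chosen after seeing the data. So was leaving out untrained_TG replicates 5 and 7.

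Under scaling by library totals alone, the median over all genes went from -0.13 to -0.64 in untrained_TG against untrained_WT, and the median over members was 1.06. Relative to all genes it was 1.70, beside 1.64 with TMM. Against trained_WT the median over members was 0.87 with library totals. The difference in mean log2 share of the summed members, 1.1 in untrained_TG against untrained_WT on all counts, was 1.85 without mitochondrially encoded genes in the total and 1.56 on TMM-adjusted totals. Against trained_WT it was 0.91, 1.65 and 1.11. For training it was 0.20 on all counts and 0.45 on TMM-adjusted totals.

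Whether libraries of the same replicate number form pairs was not tested. Over 6 shared numbers, correlations of deviations ran from -0.27 to 0.08, from -0.33 to 0.41 and from -0.27 to 0.13 in the 3 comparisons. Of these, 0, 3 and 2 exceeded 0.1, and 1, 2 and 1 libraries correlated best with their own number. With the replicate block, 45, 2 and 45 members were called for untrained_TG against untrained_WT, for training and for untrained_TG against trained_WT. Over all genes, 7270, 369 and 7117 of 18947 were called in either direction, in the same order. The planned description of promoters and proteins was not run. ndufa9b lost its call against trained_WT in 6 fits, among them library totals, and NDUFAF3 gained one in 3. ndufa12 gained one with the replicate block (0.62 log2 units, edgeR adjusted p = 0.0434). The fewest counts among members were those of ndufs8b and ndufa12. In each case the cause was not tested.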

Other observations

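The gene with the authors' symbol CABZ01076616.1 (ENSDARG00000087456) is NDUFB1, a distal membrane arm subunit, in the reference table of gene names, and the choice of members by the authors' symbols left it out. It had 38.1 to 85.1 CPM in untrained_WT (median 58.9), 65.4 to 114 CPM in trained_WT (median 90.0) and 148 to 235 CPM in untrained_TG (median 166). The transgenic libraries lay above all wild-type libraries. Its log2 fold change in untrained_TG was 1.59 ± 0.18 against untrained_WT (edgeR adjusted p = 2.31e-07) and 1.02 ± 0.18 against trained_WT (adjusted p = 6.29e-05), and in trained_WT it was 0.57 ± 0.17 (adjusted p = 0.0768).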
